A study of Bos taurus with 12 samples.

Results

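MAEL, FMR1NB, GDF9, BMP15, ZAR1, NLRP5, DDX4, DAZL and ZP3 are 9 genes best known from germ cells and oocytes, and their transcripts were followed here in cattle embryos from Day 7 to Day 13. The genes were chosen by name, with it already known that MAEL and FMR1NB were higher in Day 7 blastocysts made in vitro. The array measured 6 of the 9, out of 9155 gene symbols, with 9 probe sets that carry the gene's symbol alone. MAEL had 3 of these probe sets, BMP15 had 2, and FMR1NB, GDF9, NLRP5 and ZP3 had 1 each. ZAR1, DDX4 and DAZL had no probe set with that symbol alone and were not analysed here.

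The study used 12 Affymetrix arrays of Bos taurus RNA in 4 groups of 3, each array a pool labelled a biological replicate. The groups were Day 7 blastocysts produced in vivo, Day 7 blastocysts produced in vitro, and Day 13 conceptuses recovered from synchronised recipient heifers after transfer of blastocysts of either origin. A Day 7 pool held 25 blastocysts, a Day 13 pool held 5 conceptuses, and 10 blastocysts went to each recipient. The labels name no genetic change and no agent, and the groups called in vitro at Day 13 had left culture at Day 7 and grown in a uterus since. Because whole embryos were pooled, a lower value can mean fewer cells with the transcript or less of it per cell, and these cannot be told apart.

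MAEL encodes maelstrom, a protein of germ-cell granules that takes part in transposon silencing through piRNAs, the small RNAs bound by PIWI proteins. FMR1NB encodes a membrane protein whose expression is largely restricted to testis and some tumours, which places it among the cancer-testis antigens, and its gene lies beside FMR1. GDF9 and BMP15 are growth factors secreted by the oocyte to the surrounding follicle cells, and ZP3 is a glycoprotein of the zona pellucida, the coat that encloses the egg and early embryo. NLRP5, also called MATER, belongs to the subcortical maternal complex stored in the egg for the first cleavages. Oocyte transcripts of this kind are in the main degraded as the embryonic genome takes over, before the blastocyst forms.

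Levels are log2 intensities as deposited, and a value above 3.39, which is the 99th percentile over 50 of the array's control probe sets with no target among the RNAs added, is called above background. The highest value of these controls was 4.59. The arrays were alike in the share of probe sets above background, from 41.3% to 42.0%. As the values were deposited already normalised between arrays, this share says little of array quality. The added poly-A control RNAs had a mean between 13.3 and 15.0 on the 9 arrays of the other groups and between 9.27 and 13.0 in the Day 13 in vitro group. The difference between the 3′ and 5′ GAPDH probe sets, a sign of RNA length, was 5.61 ± 0.04 (SD, n = 3) in Day 7 in vivo pools and 3.69 ± 0.43 (SD, n = 3) in Day 7 in vitro pools, with no overlap. At Day 13 it was between 2.85 and 4.62 for in vivo origin and between 2.53 and 4.17 for in vitro origin. The Day 7 in vivo pools were thus above all other arrays. Of 13 measured blastocyst and trophoblast markers, 13 were above background on at least 1 array and 9 on all 12, among them KRT18, GATA6 and IFNT2. PAG8 was above background on 6 arrays, PAG11 and ELF5 on 5 each, and SOX2 on 2.

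By the brightest of its 3 probe sets, one marked s_at because its probes can match more than 1 transcript, MAEL was at 6.47, 6.93 and 6.35 in the 3 Day 7 in vitro pools. In Day 7 in vivo pools the same probe set gave 2.91, 3.47 and 3.83. The in vitro blastocysts were therefore all above the in vivo ones, and replicates 2 and 3 of the latter lay just over background but under the highest control. The group means were 6.59 ± 0.31 and 3.40 ± 0.47 (SD, n = 3 each), a log2 difference of 3.18 (SE 0.22) or 9.09-fold. As the in vivo mean lay at the background, the size is uncertain, and with values under the background raised to it the difference was 3.02. This is the contrast on which the gene was chosen, so the difference is a description. At Day 13 the probe set was at background on all 6 arrays, at 2.46, 2.44 and 2.48 for embryos of in vivo origin and at 2.44, 2.44 and 2.48 for those of in vitro origin.

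The other MAEL probe sets, here called the second and the third by their mean over all arrays, were dimmer and disagreed on which in vitro pool was high. The second gave 5.06, 2.96 and 4.95 in Day 7 in vitro replicates 1, 2 and 3, so replicate 2 alone was at background. The third gave 2.46, 4.96 and 2.77, so here replicate 2 alone was above background. The third and the brightest are listed with the same source sequence, yet in replicates 1 and 3 the brightest gave 6.47 and 6.35. In Day 7 in vivo pools neither probe set left background, with 2.31, 2.28 and 3.21 for the second and 2.29, 2.24 and 2.24 for the third, and at Day 13 both lay between 2.23 and 2.31. All 3 probe sets thus had their highest array among the Day 7 in vitro pools, but for the second the groups overlapped, since its in vitro replicate 2 was under in vivo replicate 3. Set against the background, the in vitro mean of the second was at least 1.91-fold higher, and that of the third only reached the background. Without in vitro replicate 2 the Day 7 difference of the second went from 1.72 to 2.41 and that of the third from 1.14 to 0.36 on the log2 scale. Why these probe sets differed was not tested.

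FMR1NB, by its single probe set, was at 6.56, 5.12 and 7.08 in Day 7 in vitro pools. The Day 7 in vivo pools gave 2.25, 2.28 and 2.74, all at background, and the 6 Day 13 arrays gave between 2.23 and 2.25. FMR1NB was thus above background on 3 of 12 arrays, which were the 3 Day 7 in vitro pools, and replicate 2 was the lowest of these. The in vitro mean was 6.25 ± 1.02 (SD, n = 3), a log2 difference of 3.83 (SE 0.42) from the deposited in vivo values and at least 7.27-fold against the background. Without Day 7 in vitro replicate 2 the difference was 4.40.

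**Figure D1:**
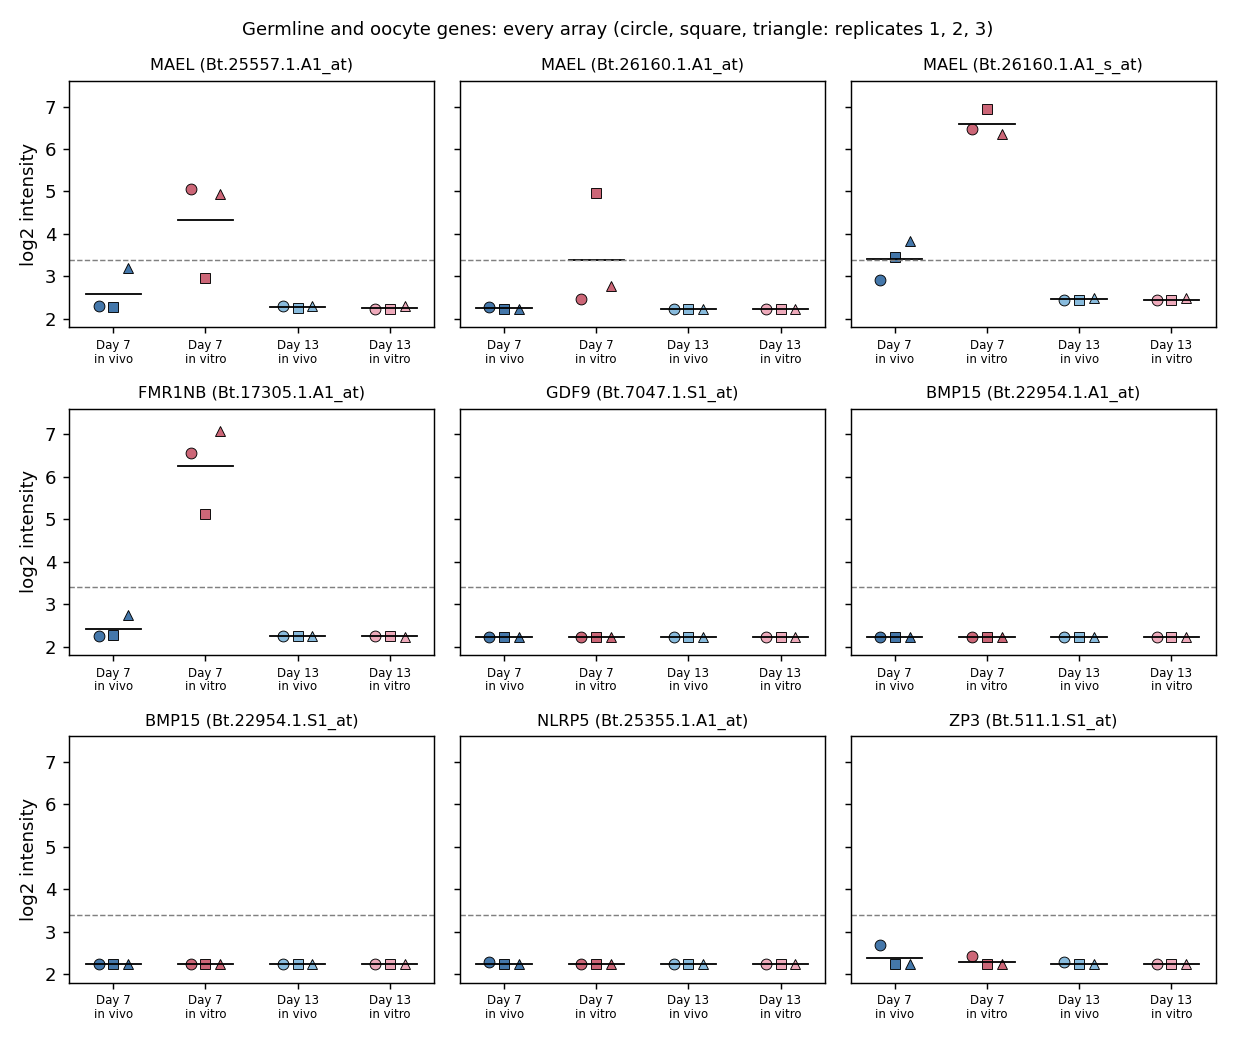
Log2 intensity (vertical axis) of the 9 probe sets of MAEL, FMR1NB, GDF9, BMP15, NLRP5 and ZP3 on each of the 12 arrays, by group (horizontal axis); the MAEL panels show, from the left, the second, the third and the brightest probe set. Arrays are drawn with replicates 1, 2 and 3 as circle, square and triangle, the group mean as a bar and the background of 3.39 as a dashed line. MAEL and FMR1NB leave the background mainly in Day 7 in vitro pools, and the 5 probe sets of the other genes stay under it on every array.

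The oocyte genes were not detected at either day. GDF9, both BMP15 probe sets and NLRP5 lay between 2.23 and 2.28 on all 12 arrays, at or next to the lowest value in the table, 2.23. ZP3 reached 2.69 in Day 7 in vivo replicate 1 and 2.42 in Day 7 in vitro replicate 1, and was between 2.24 and 2.28 on the other arrays. None of the 60 values of these 5 probe sets was above background, so no fold is given between any groups. The zona transcripts ZP2 and ZP4, which encode other components of the coat, were also at background on all 12 arrays, with highest values of 2.25 and 2.35. At this background a low level of these transcripts cannot be told from none.

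The difference between the origins at Day 13 was taken between arrays on which the genes had not been chosen, although its SE pools the spread of all 12 arrays and so draws on the Day 7 ones. It asks whether embryos that began in vitro still differed after growth in recipients to that day. MAEL differed by -0.005 (SE 0.22) and FMR1NB by -0.007 (SE 0.42) on the log2 scale, each with an adjusted p of 1 in limma. None of the 9 probe sets was called at an adjusted p below 0.05 (limma), none had an unadjusted p below 0.05, and in none did the groups fail to overlap. Over all probe sets 1.2% were called in this comparison, and 14.7% had groups that did not overlap. Since all 9 were at background in both groups, this compares values near the floor of the table.

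From Day 7 to Day 13 the course of MAEL and FMR1NB differed with the origin of the embryos. In embryos made in vitro, MAEL went from a mean of 6.59 to 2.46 by its brightest probe set, at least 9.16-fold lower, and FMR1NB from 6.25 to 2.24, at least 7.27-fold lower. In embryos made in vivo, MAEL went from 3.40 to 2.46, at least 1.01-fold lower against the background, and FMR1NB from 2.42 to 2.25, with both days at background. These contrasts share the Day 7 arrays on which the 2 genes were chosen, so the values are a description with no test.

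Counted in the same fit, 3 of the 9 probe sets were called in embryos made in vitro (2 of MAEL and that of FMR1NB), beside 7.51% of all probe sets. All 3 were lower at Day 13, beside 3.96% of all. In embryos made in vivo 0 were called, beside 3.79%. At an unadjusted p below 0.05 the counts were 3 and 1, beside 19.2% and 14.0% of all probe sets. In the Day 7 comparison of the origins 2 were called, beside 0.208%, both higher in vitro, beside 0.129%. For the contrast of the day effects, in vitro minus in vivo, 2 were called, beside 0.4%, both negative, beside 0.254%. At Day 7 the groups did not overlap for 3 of the 9, beside 9.29% of all probe sets, and for the day comparisons for 4 in vitro and 1 in vivo, beside 21.5% and 15%. All probe sets in these counts were those of MAEL or FMR1NB, and nothing is read from the counts. The other 5 probe sets, which the choice did not depend on, gave 0 calls by limma in each of the 5 comparisons and 0 at an unadjusted p below 0.05. Over all probe sets the share at that unadjusted p was between 6.67% and 19.2% in these comparisons. These 5 probe sets were at background on every array, and GDF9 had the same value on all of them. Counts of 0 were therefore given by the floor, and nothing is read from them either.

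Across the 12 arrays the brightest MAEL probe set and FMR1NB had a Pearson r of 0.93, and MAEL's second probe set and FMR1NB one of 0.94. The second probe set and FMR1NB were both lowest in replicate 2 among the Day 7 in vitro pools. The third, which was high in that replicate, had an r of 0.48 with FMR1NB and 0.20 with the second. These values describe 12 arrays in 4 groups and are carried largely by the Day 7 in vitro pools.

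Among 5802 genes above background on at least 3 arrays, those most like MAEL were SLC1A4 (r = 0.96), NOS2 (0.96), STARD3NL (0.96), BNIP3 (0.95) and FER (0.94), with FMR1NB in place 6. SLC1A4 encodes a transporter of neutral amino acids, and its mean was 4.52 in Day 7 in vitro pools and 3.07, 3.11 and 2.92 in Day 7 in vivo, Day 13 in vivo and Day 13 in vitro pools, all at background. NOS2, the inducible nitric oxide synthase, had a mean of 8.11 in Day 7 in vitro pools and 5.22, 4.79 and 3.87 in the same order of the other groups. BNIP3, a mitochondrial protein induced by low oxygen, had 11.52 against 10.02, 9.87 and 9.52. Those most like FMR1NB were ZFYVE1 (r = 0.99), ZNF45 (0.98), FER (0.97), SLC1A4 (0.97) and PDCD7 (0.96), with MAEL in place 10. FER, a cytoplasmic tyrosine kinase, and SLC1A4 were in both sets of 5. Since MAEL and FMR1NB were high mainly in the Day 7 in vitro pools, genes picked for likeness to them had to be high there too, and SLC1A4 and ZFYVE1 were above background on those 3 arrays alone.

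**Figure D2:**
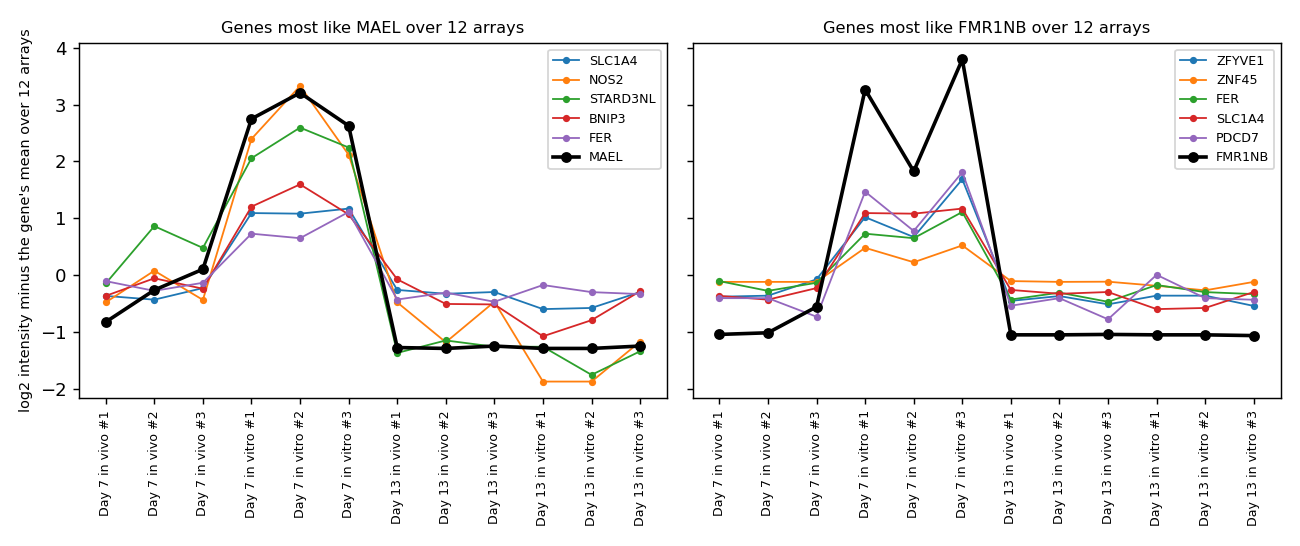
Log2 intensity minus the gene's own mean over 12 arrays (vertical axis) on each array (horizontal axis, # giving the replicate number) for MAEL (left, black) and FMR1NB (right, black) and the 5 genes with the highest Pearson r with each. Lines only join the points of 1 gene, and every gene shown is highest on Day 7 in vitro arrays. Among these arrays FMR1NB and all 5 genes most like it are lowest in replicate 2, where MAEL, NOS2, STARD3NL and BNIP3 peak.

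The genes nearest to MAEL and FMR1NB were read next. In the RefSeq gene order, GPA33 and STYXL2 precede MAEL, and POGK and UCK2 are the nearest measured genes after it. GPA33, a gut epithelial surface antigen, was above background on 1 array, at 3.60 in Day 7 in vivo replicate 1, and STYXL2 on none. POGK had means of 8.82 in vivo and 8.62 in vitro at Day 7, and UCK2, a uridine-cytidine kinase, 9.07 and 9.49.

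FMR1, which encodes an RNA-binding protein of translational control and lies directly before FMR1NB, was bright on all 12 arrays. At Day 7 it was at 11.25, 11.42 and 10.88 in vivo and at 10.86, 11.33 and 10.60 in vitro, with overlapping groups and a log2 difference of -0.26 ± 0.32 (SE; adjusted p = 1 in limma). AFF2, directly after FMR1NB, was at 2.23 on every array. TMEM185A, a membrane protein gene 8 places after FMR1NB, had 3.35, 3.35 and 3.43 in vivo and 6.26, 4.48 and 4.65 in vitro at Day 7. Like FMR1NB, it was higher in all in vitro pools and at background on all 3 Day 13 arrays of in vitro origin, at 2.74, 2.91 and 3.33. Unlike FMR1NB, it was above background in Day 7 in vivo replicate 3 and on 1 Day 13 in vivo array, at 5.71. Its Day 7 difference of 1.75 ± 0.70 (SE) had an adjusted p of 0.693 in limma. ARHGEF6, the next measured gene before FMR1, was at background on all 12 arrays. None of these 8 neighbours was called between the origins at Day 7, where few probe sets were called at all.

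The wider germline and oocyte programme was set out in 7 lists with 169 other gene names, of which 43 were measured. Of the 43, 30 were above background on at least 1 array, 23 on all 12, and 13 on none. Between the origins at Day 7 limma called 0 of the 43, beside 0.208% of all probe sets. At an unadjusted p below 0.05 there were 7 of the 43, beside 6.67% of all probe sets and 12.04% of those above background on at least 3 arrays. The median log2 difference of the 43 was 0.02, beside 0 over all probe sets. At Day 13 it called 2, beside 1.2% of all probe sets. From Day 7 to Day 13 it called 4 in embryos made in vivo (3 higher, 1 lower), beside 3.79%, and 4 in embryos made in vitro (2 higher, 2 lower), beside 7.51%. For the difference of the day effect it called 1, beside 0.4%.

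**Figure D3:**
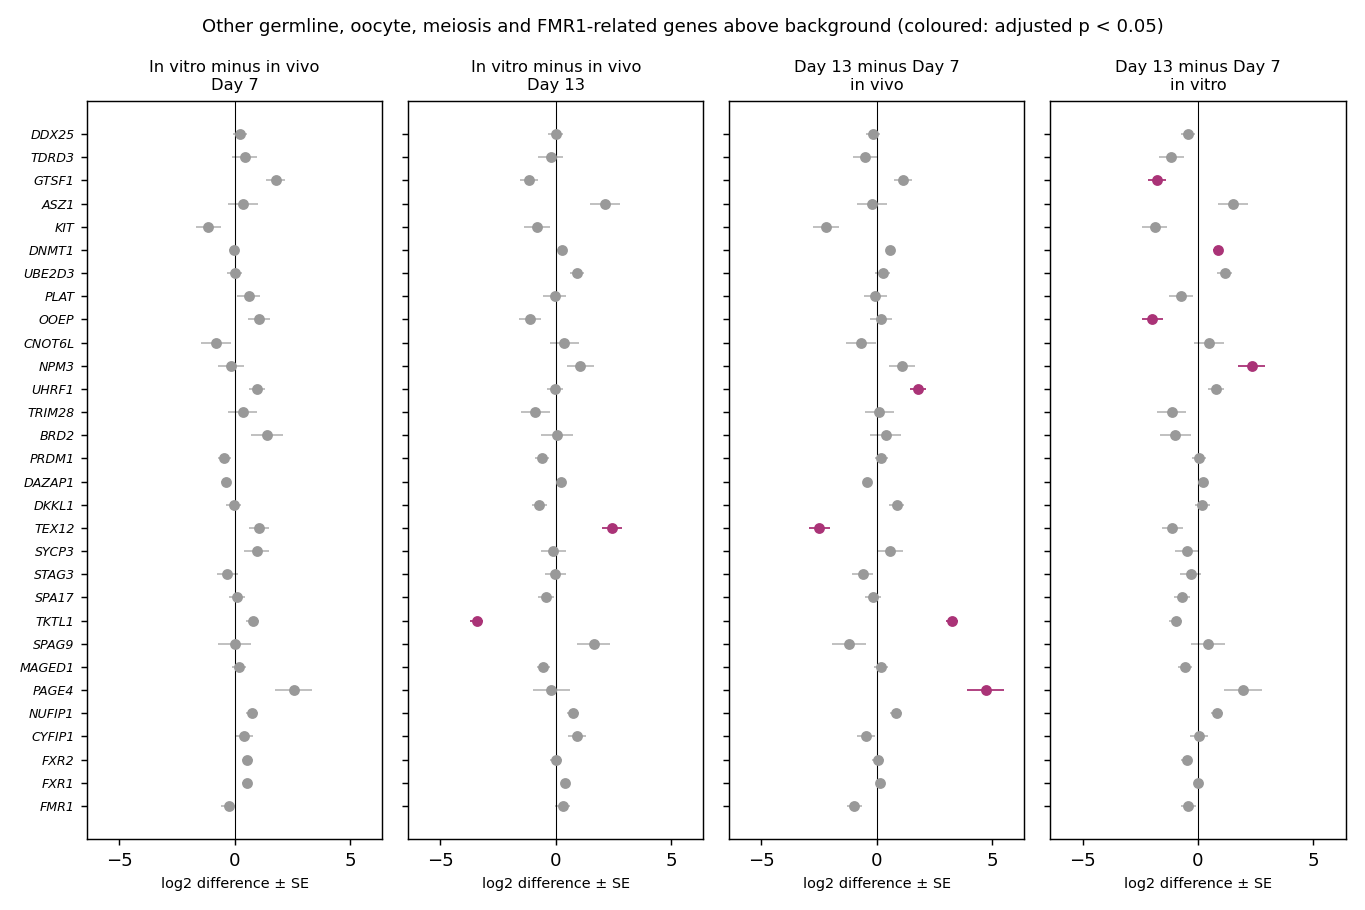
Log2 difference with its standard error (horizontal axes) for the 30 other germline, oocyte, meiosis and FMR1-related genes above background on at least 1 array, 1 row a gene by its brightest probe set, in the 4 comparisons between groups. Coloured points have a limma adjusted p below 0.05: none at Day 7 between origins, TEX12 and TKTL1 at Day 13, and 4 genes in each comparison of days.

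Of MAEL's own pathway, the piRNA and germ-granule list, 6 other genes were measured and 4 were above background. GTSF1, a cofactor of PIWI proteins, was at 7.30, 7.04 and 7.50 in Day 7 in vivo pools and at 9.18, 8.51 and 9.46 in vitro. At Day 13 it was at 7.83, 9.18 and 8.29 for in vivo origin and at 6.95, 7.07 and 7.80 for in vitro origin. The Day 7 in vitro pools were all above the in vivo ones, and at Day 13 the order was the other way round. GTSF1 fell by 1.78 ± 0.39 (SE, log2) from Day 7 to Day 13 in embryos made in vitro (adjusted p = 0.0303, limma), a call lost without any of 4 single arrays (Day 7 replicate 1 or 3, Day 13 replicate 1 or 2), where the adjusted p reached 0.118. That call was also lost with only the compared arrays (0.111), a trended variance (0.0698) or a replicate block (0.0621). The Day 7 difference of GTSF1 between origins was 1.77 (adjusted p = 0.224) and the difference of its day effect -2.93 (adjusted p = 0.0824). TDRD6 and TDRD7, Tudor-domain proteins of germ granules, were at background on all 12 arrays, and DDX25 and TDRD3 were called in no comparison.

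Of the maternal-effect list, 11 other genes were measured and 9 were above background. OOEP, a partner of NLRP5 in the subcortical maternal complex, was above background on all 12 arrays where NLRP5 was on none. It was at 6.58, 5.97 and 6.80 in Day 7 in vitro pools and at 4.39, 4.39 and 4.66 in Day 13 pools of in vitro origin, with no overlap, and fell by 1.97 ± 0.47 (SE, log2; adjusted p = 0.0396, limma). That call was lost without any 1 of these 6 arrays, with an adjusted p of up to 0.141. Quantile normalisation, a trended variance and a replicate block ended the call too. The values of 4.39 lay under the highest control of 4.59, so the size of the fall is uncertain. OOEP in embryos made in vivo was at 6.02, 5.23 and 4.96 at Day 7 and at 4.87, 6.64 and 5.26 at Day 13, and the groups overlapped.

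Other genes of the maternal-effect list also passed the test. UHRF1, which brings the maintenance DNA methyltransferase to replicating DNA, rose by 1.78 ± 0.35 (SE, log2) in embryos made in vivo (adjusted p = 0.0268, limma), but the adjusted p rose to as much as 0.0809 on leaving out Day 7 replicate 2, Day 7 replicate 3 or Day 13 replicate 3. The UHRF1 call was also lost with only the compared arrays (0.223), a trended variance (0.0707) or arrays centred on ribosomal protein probe sets (0.0618). DNMT1, that methyltransferase, rose by 0.89 ± 0.21 in embryos made in vitro (adjusted p = 0.0419), and NPM3, a member of the nucleoplasmin family, rose there by 2.33 ± 0.57 (adjusted p = 0.0457). The DNMT1 call was lost without any 1 of the 6 arrays compared (up to 0.147), and the NPM3 call without any but Day 13 replicate 3 (up to 0.164). Both were also lost with a trended variance or a replicate block, and the NPM3 call with only the compared arrays. MOS, the kinase that holds the egg in metaphase arrest, and KPNA7, an oocyte importin, were at background on all 12 arrays.

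Of the oocyte-secreted and zona list, 5 other genes were measured, and KIT, the receptor of stem cell factor, was the only one above background. FGF8, KITLG, ZP2 and ZP4 were at background on all 12 arrays. Of 4 germ-cell factors measured, BOLL, a relative of DAZL, was at background, and DAZAP1, PRDM1 and DKKL1 were called in no comparison.

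Of 4 meiosis genes measured, TEX12, a central element protein of the synaptonemal complex, was detected on all 12 arrays. It was at 10.39, 11.36 and 10.37 in Day 7 in vivo pools, at 11.85, 12.42 and 11.05 in Day 7 in vitro pools, at 8.81, 7.93 and 7.92 in Day 13 pools of in vivo origin and at 10.68, 10.27 and 11.07 in those of in vitro origin. The Day 13 in vivo pools were below all 9 others. TEX12 fell by 2.49 ± 0.44 (SE, log2) from Day 7 to Day 13 in embryos made in vivo (adjusted p = 0.018, limma), and at Day 13 it was 2.45 ± 0.44 higher in those of in vitro origin (adjusted p = 0.0428). Leaving out Day 7 in vivo replicate 2 or Day 13 in vivo replicate 2 or 3 ended the first call (adjusted p up to 0.059). Leaving out either of the latter or Day 13 in vitro replicate 1 or 2 ended the second (up to 0.149). Both calls were also lost with only the compared arrays (adjusted p = 0.127 and 0.232, limma) and with a replicate block (0.0568 and 0.104). Quantile normalisation and a trended variance ended the second too.

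Of the cancer-testis list, which holds FMR1NB, 7 other genes were measured and 5 were above background. PAGE4, an X-linked cancer-testis antigen, was at 7.90, 7.17 and 7.51 in Day 7 in vivo pools and at 9.90, 8.89 and 11.48 in vitro, and at Day 13 at 10.83, 13.78 and 12.13 for in vivo origin and at 12.43, 11.86 and 11.87 for in vitro origin. All Day 7 in vitro pools were above the in vivo ones, with a difference of 2.56 (adjusted p = 0.531). PAGE4 rose by 4.72 ± 0.81 (SE, log2) from Day 7 to Day 13 in embryos made in vivo (adjusted p = 0.016, limma), where FMR1NB stayed at background. Leaving out Day 7 in vivo replicate 2 ended the call (adjusted p = 0.0567). Fitting only the compared arrays (0.14) or adding a replicate block (0.0592) ended it too.

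TKTL1, a transketolase-like protein of the same list, was above background in Day 13 pools of in vivo origin, at 5.86, 5.23 and 6.34. Pools of in vitro origin were at 2.31, 2.25 and 2.56 at Day 13. At Day 7 TKTL1 was at 2.23, 2.76 and 2.68 in vivo and at 3.20, 3.57 and 3.23 in vitro, where replicate 2 alone passed the background. It was at least 5.34-fold higher at Day 13 than at Day 7 in embryos made in vivo (adjusted p = 0.000417, limma), and at Day 13 at least 5.34-fold lower in embryos of in vitro origin (adjusted p = 0.000856). The latter call was lost when only the 6 Day 13 arrays were fitted (adjusted p = 0.136). In the latter group the poly-A control RNAs were also lower, as given above, and their part in the result was not tested. LDHC and TEX14, testis genes of the list, were at background on all 12 arrays, and MAGED1, SPA17 and SPAG9 were called in no comparison.

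Of the 6 other genes of the FMR1 family and locus, 5 were above background and none was called in any of the 5 comparisons. FXR1 and FXR2 encode the relatives of the FMR1 protein, and NUFIP1 and CYFIP1 its partners.

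**Figure D4:**
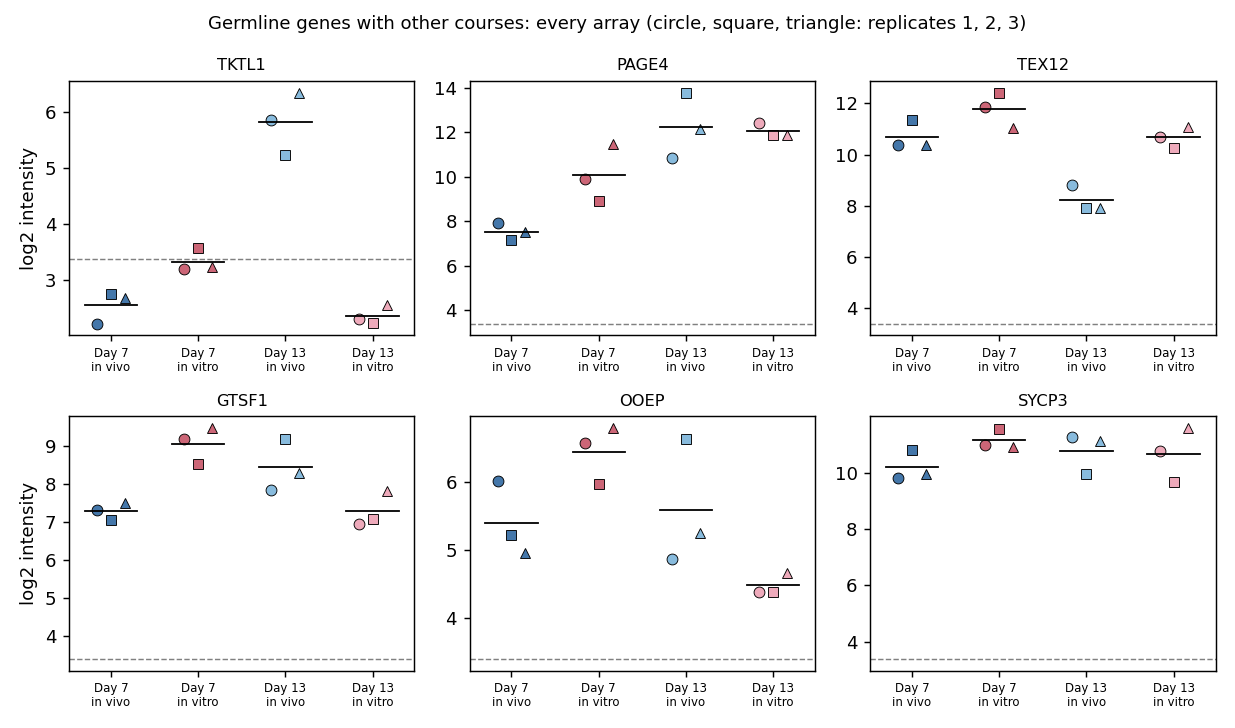
Log2 intensity (vertical axes, each on its own scale) of TKTL1, PAGE4, TEX12, GTSF1, OOEP and SYCP3 on each array by group (horizontal axes), with symbols, bars and the dashed background of 3.39 as in the plot of MAEL and FMR1NB. GTSF1 and OOEP have their highest mean in Day 7 in vitro pools, TKTL1 leaves the background in Day 13 in vivo pools, and TEX12 is lowest there.

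Markers of cells that could carry germline or follicle transcripts were read beside MAEL and FMR1NB. Of 15 cumulus and granulosa markers, 14 were measured and 6 were above background on any array. HAS2, NR5A1, STAR and HSD3B1 were above it on all 12, TNFAIP6 on 4 and CYP11A1 on 2, and FSHR, AMH, CYP19A1, FOXL2, INHA, INHBA, LHCGR and PTX3 on none. The log2 of their summed intensity was between 9.10 and 9.70 in Day 7 in vivo pools and between 8.84 and 9.29 in Day 7 in vitro pools. The 4 markers above background on every array make up most of this sum. Of these, NR5A1 was between 4.52 and 5.10 and STAR between 4.25 and 9.62, so both reached under the highest control of 4.59. The part of these markers in the levels of MAEL and FMR1NB was not tested.

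Of 14 sperm markers 8 were measured. ODF2, between 8.27 and 10.24, and TNP1, between 4.38 and 6.81, were above background on all 12 arrays, PRM1 on 9 and PRM2 on 1, and ACR, AKAP4, ODF1 and TNP2 on none. The log2 of their summed intensity was between 9.80 and 10.42 in Day 7 in vivo pools and between 9.79 and 10.00 in Day 7 in vitro pools. ODF2 alone makes up most of this sum, so the sum says little of the other markers. PRM1, the sperm protamine, was at 5.26, 3.78 and 7.94 in Day 7 in vitro pools and at 4.45, 3.08 and 3.78 in vivo, with overlap, and like FMR1NB it was lowest in in vitro replicate 2 and highest in replicate 3. Its part in the result was not tested. Of 8 uterine epithelial markers measured, SPP1, which reached 7.62, was above background on 10 arrays, OVGP1 on 9 and MUC1 on 1, and PGR, ESR1, OXTR, SERPINA14 and PAEP on none.

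Of 5 blood markers measured, PTPRC, CD68, CD3E and HBA were at background on all arrays, and HBB had a mean of 7.27 in both Day 7 groups. Summed over the 5, the log2 intensity was between 6.90 and 7.92 in Day 7 in vivo pools. In Day 7 in vitro pools it was more spread, between 5.72 and 8.56. The GAPDH difference given above separated the Day 7 groups as MAEL and FMR1NB did, and its part in their difference was not tested. That GAPDH measure also set the Day 7 in vivo pools apart from all Day 13 pools. Its part in the changes from Day 7 to Day 13 was not tested.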

How the data were processed

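Each deposited value is the log2 intensity of a probe set, already normalised between arrays by the authors. RMA, GCRMA and limma appear in the submitters' processing notes, and whether RMA or GCRMA made the values is not given in the sources used here. Per the labels, 75 ng of total RNA was amplified in 2 cycles. Of 24128 probe sets 112 were controls. The files hold no detection calls, so background came from controls. For a group with all arrays at background a fold is a lower bound against it, written "at least", beside the adjusted p of the fit to deposited values.

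Group means of all 12 arrays were fitted with limma 3.58.1 (lmFit, eBayes) in R 4.3.3, with calls at a two-sided Benjamini-Hochberg adjusted p below 0.05 over 24016 probe sets. The fit was also run on simulated arrays with known changes. Their spread was drawn from probe sets above background on at least 3 arrays, so the simulation does not cover probe sets at the floor. The labels give no batch, and the number of pools limits the precision. For genes other than the 9 the brightest probe set over all arrays was read.

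Genes and lists were chosen with earlier results of these data known. Named were the 9 genes, the 5 genes with the highest Pearson r to MAEL and to FMR1NB, and from each list up to 4 called genes with those sharing a complex or locus with the 9. Neighbours, SYCP3, ASZ1 and genes named as uncalled or at background fall outside that rule. Alternatives were 3 other scalings, a filter on dim probe sets, only the compared arrays, a trended variance, a replicate block, another background and leaving out each array.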

Additional observations from a re-analysis of the deposited data

Results flagged for a closer look

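Among the 43 other listed genes, TKTL1 was the 1 whose change from Day 7 to Day 13 differed between the origins by a test of the difference itself. The difference of its day effect, in vitro minus in vivo, was -4.21 ± 0.38 (SE, log2; adjusted p = 0.00386, limma), with an adjusted p between 0.000569 and 0.0318 over 18 alternatives. With values under the background raised to it, the difference was -2.48. All 3 Day 13 pools of in vivo origin were above the other 9 arrays.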

How the results depend on the processing

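No direction of a MAEL or FMR1NB difference or of a listed gene's call reversed under these alternatives. Of 183 values of MAEL and FMR1NB differences under the alternatives, 171 moved by less than 1 SD. The filter, only the compared arrays, the trended variance and the replicate block leave a log2 difference as it was. Values under these settings thus could neither move nor reverse. All these MAEL and FMR1NB differences use the Day 7 arrays on which the genes were chosen, so the count is a description. The Day 7 difference ranged from 2.82 to 3.40 for MAEL's brightest probe set and from 3.41 to 4.40 for FMR1NB. Of 11 calls of other listed genes 9 were lost under at least 1 alternative, and 8 without at least 1 array. The alternatives for other listed genes were chosen after seeing the data.

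Counts of the 9 probe sets called went from 2 to 0 at Day 7 between origins with only the compared arrays and to 1 with a trended variance, and ranged from 1 to 3 leaving out 1 array (1 without Day 7 in vitro replicate 1). The count in embryos made in vivo went from 0 to 1 with ribosomal centring and with the filter on dim probe sets (0 to 1 leaving out 1 array, 1 without Day 7 in vivo replicate 1). For the difference of the day effect it went from 2 to 1 with quantile normalisation and the trended variance (1 to 3 leaving out 1 array, 1 without any except Day 7 in vitro replicate 2 and Day 13 in vitro replicate 3). In vitro it was 2 to 4 throughout, and at Day 13 it was 0 throughout.

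For other listed genes, fitting only the compared arrays gave 1 call in place of 4 in vivo and 0 in place of 2 at Day 13. The trended variance gave 0 in place of 4 in vitro and 1 at Day 13, and quantile normalisation gave 1 at Day 13. The filter gave 7 in vitro and 2 for the difference of the day effect, and ribosomal centring gave 2 for the latter. Leaving out 1 array gave 1 to 5 in vivo (1 without Day 7 in vivo replicate 2), 0 to 4 in vitro (0 or 1 without any of the compared arrays but Day 13 in vitro replicate 3), 1 to 4 at Day 13 and 1 to 2 for the difference. Without Day 13 in vitro replicate 3 the last counts were 4 and 2, and the Day 13 count was 1 on leaving out in vitro replicate 1, in vitro replicate 2 or in vivo replicate 2 of that day. Ribosomal centring moved the median of all probe sets by -0.41 in vivo, -0.37 at Day 7, 0.11 at Day 13 and 0.48 for the difference. The cause of these shifts was not tested.

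Replicate numbers gave no clear sign of pairing. Of 18 same-numbered pairs, 3 correlated above 0.1 (median -0.06, from -0.65 to 0.43). Pairs with different numbers were not compared. With the replicate block, calls of the 9 probe sets were 1 at Day 7 and 1 for the difference of the day effect, and calls of other listed genes 2 in vivo, 0 in vitro and 1 at Day 13.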

Other observations

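Some germline and oocyte genes not singled out above were bright in these embryos, and they were chosen after their values were seen. KIT was at 12.68, 12.81 and 11.62 in Day 7 in vivo pools and at 11.22, 11.74 and 10.71 in vitro by its brightest probe set, and at Day 13 at 9.69, 9.88 and 10.94 for in vivo origin and at 8.92, 8.79 and 10.35 for in vitro origin. Every Day 13 pool was below every Day 7 pool of its own origin, with log2 differences of -2.20 ± 0.55 in vivo (SE; adjusted p = 0.0754, limma) and -1.87 ± 0.55 in vitro (adjusted p = 0.0872). A second KIT probe set was called in embryos made in vitro (adjusted p = 0.00466): it went from between 7.25 and 9.25 at Day 7 to 2.86, 2.74 and 4.37 at Day 13, where replicate 3 alone was above background, so no size is given for the fall.

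SYCP3, an axial protein of meiotic chromosomes, was detected on all 12 arrays. At Day 7 its brightest probe set gave 9.82, 10.82 and 9.94 in vivo and 10.98, 11.53 and 10.91 in vitro, a difference of 0.95 ± 0.54 (SE, log2; adjusted p = 0.836, limma). A dimmer one gave 4.35, 5.92 and 4.97 in vivo and 7.77, 7.82 and 7.22 in vitro, a difference of 2.52 ± 0.58 (adjusted p = 0.241). By both, all in vitro pools were above the in vivo ones, and neither was called. ASZ1, a germ-granule protein of the piRNA pathway, was at 8.84, 7.89 and 7.52 in Day 13 pools of in vitro origin and at 6.03, 5.28 and 6.57 in those of in vivo origin, without overlap, a difference of 2.12 ± 0.65 (adjusted p = 0.171).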
